A study of Rattus norvegicus with 4 samples.

Results

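Integrins and focal adhesion genes were examined in the m6A peak lists of neonatal rat cardiac fibroblasts (CFs), for which the study also measured migration. The members were 41 genes named by symbol, namely 18 integrin subunits and 23 adaptor genes, a word used here for the kinases, scaffolds and actin linkers that join integrins to the cytoskeleton. All of them matched an NCBI rat gene, and 33 of the 41 had a listed peak, out of 8729 genes with a peak in either list. CFs were primary cells from hearts of Sprague-Dawley rats of at most 3 days of age. They were transfected for 48 h with plasmid at 1 μg/ml, either an empty plasmid (Vector, genotype given as WT) or a plasmid that carried rat FTO cDNA (FTO, genotype given as FTO overexpression). Each group had 1 m6A-IP and 1 input library, from which 1 list of called peaks was made. No difference below therefore has a replicate check, and no test between the groups was possible.

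FTO removes the methyl group of N6-methyladenosine (m6A) in RNA. In m6A-seq, RNA fragments bound by an antibody to m6A are sequenced next to unselected input RNA, and peaks are called where the bound fragments exceed the input. Integrins are pairs of 1 alpha and 1 beta subunit that bind matrix proteins outside the cell. Talins and kindlins bind the tails of beta subunits and switch integrins on, focal adhesion kinase, Src, paxillin and p130Cas pass the signal on, and the ILK complex, vinculin, tensins, filamins and actinins tie the site to actin. Fibroblasts pull on matrix and migrate through these sites.

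The lists give the length of each peak in bp, its Ensembl transcript and its NCBI gene, without height or position, and the depth of the libraries is unknown. Each peak has a number in its name. Words such as between, next to, first and last below refer to the order of these numbers, not to places on a transcript. The peak numbers ran higher than the lists were long. The Flna peak had the number 59474 with Vector and 51986 with FTO, where 21249 and 17796 peaks were listed. Not every numbered peak is thus in the lists, the reason is unknown, and an unlisted peak need not have been uncalled. The number of peaks of a gene depends on the level of its transcript and on library depth as well as on m6A, and their parts were not tested. In bulk RNA, fewer cells of a type and less RNA per cell cannot be told apart either. Fto, the transfected gene, had 3 Vector peaks and 9 FTO peaks.

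The integrins had 30 Vector peaks and 19 FTO peaks, and the adaptors had 75 and 73. All listed genes together had 21249 and 17796, so there were 83.7 FTO peaks for every 100 Vector peaks, against 63.3 for the integrins and 97.3 for the adaptors. FTO peaks made up 38.8% of the 49 integrin peaks of both lists (95% Wilson interval 26.4% to 52.8%), 49.3% of the 148 adaptor peaks (41.4% to 57.3%) and 45.6% of all peaks, so the intervals of both classes held the share of all genes. Counted as transcripts with a peak, the integrins went the other way, with 12 Vector and 14 FTO transcripts. These and all following intervals cover counting error only, and they treat peaks of 1 gene as separate although these share a transcript. The difference among the integrins lay in the alpha subunits, with 25 Vector peaks and 14 FTO peaks, while the beta subunits had 5 in each.

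Gene by gene, 6 of the 14 integrins with a peak (42.9%) and 8 of the 19 such adaptors (42.1%) had fewer FTO than Vector peaks, where 41.4% of all listed genes had fewer. FTO peaks were more numerous for 6 integrins (42.9%) and 7 adaptors (36.8%), against 21.2% of all genes. Each of these 6 integrins differed by 1 peak. When a difference of at least 2 was required, 5 of the 14 integrins had fewer and 0 had more, against 14.8% and 4.72% of all genes. With peaks of at least 200 bp, 4 integrins had fewer, 2 had more and 4 had as many, while the other integrins had no such peak. Of the 7423 genes with such a peak, 27.5% had fewer and 18.6% had more. With peaks of any length, the number was the same for 2 integrins and 4 adaptors, together 18.2% of the 33 members. Among all genes, 37.4% had the same number. When any difference counted, the share of genes with fewer peaks was thus near that of all genes in both classes. At a difference of at least 2 this did not hold for the integrins, with 5 of 14 against 14.8%. Of the 19 adaptors, 2 had fewer and 2 had more at that limit. By adaptor role, FTO peaks were fewer for 1 and more for 6 of the 9 actin linkers with a peak, fewer for 3 and more for 1 of the 5 kinases and scaffolds, and fewer for 2 and more for 0 of both the 3 activators and the 2 genes of the ILK complex. The median difference per gene was 0 in both classes and over all genes. A difference of at least 3 peaks downward was found for 4 members, Itga6, Itga9, Itga11 and Actn1, and upward for 1 member, Tns1, which compares with 5.97% and 1.39% of all genes. With peaks of at least 200 bp no member of these 5 kept a difference of 3, at 3 Vector peaks and 1 FTO peak for Itga6, 2 and 0 for Itga11, 2 and 1 for Actn1, 3 and 3 for Tns1 and 0 and 0 for Itga9. With peaks of at least 100 bp Itga11 and Tns1 already fell short, at 2 and 0 and at 6 and 8. A gene with fewer than 3 Vector peaks cannot fall by 3. Shares at this limit, here and in the lists below, therefore also depend on the number of peaks per gene.

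**Figure D1:**
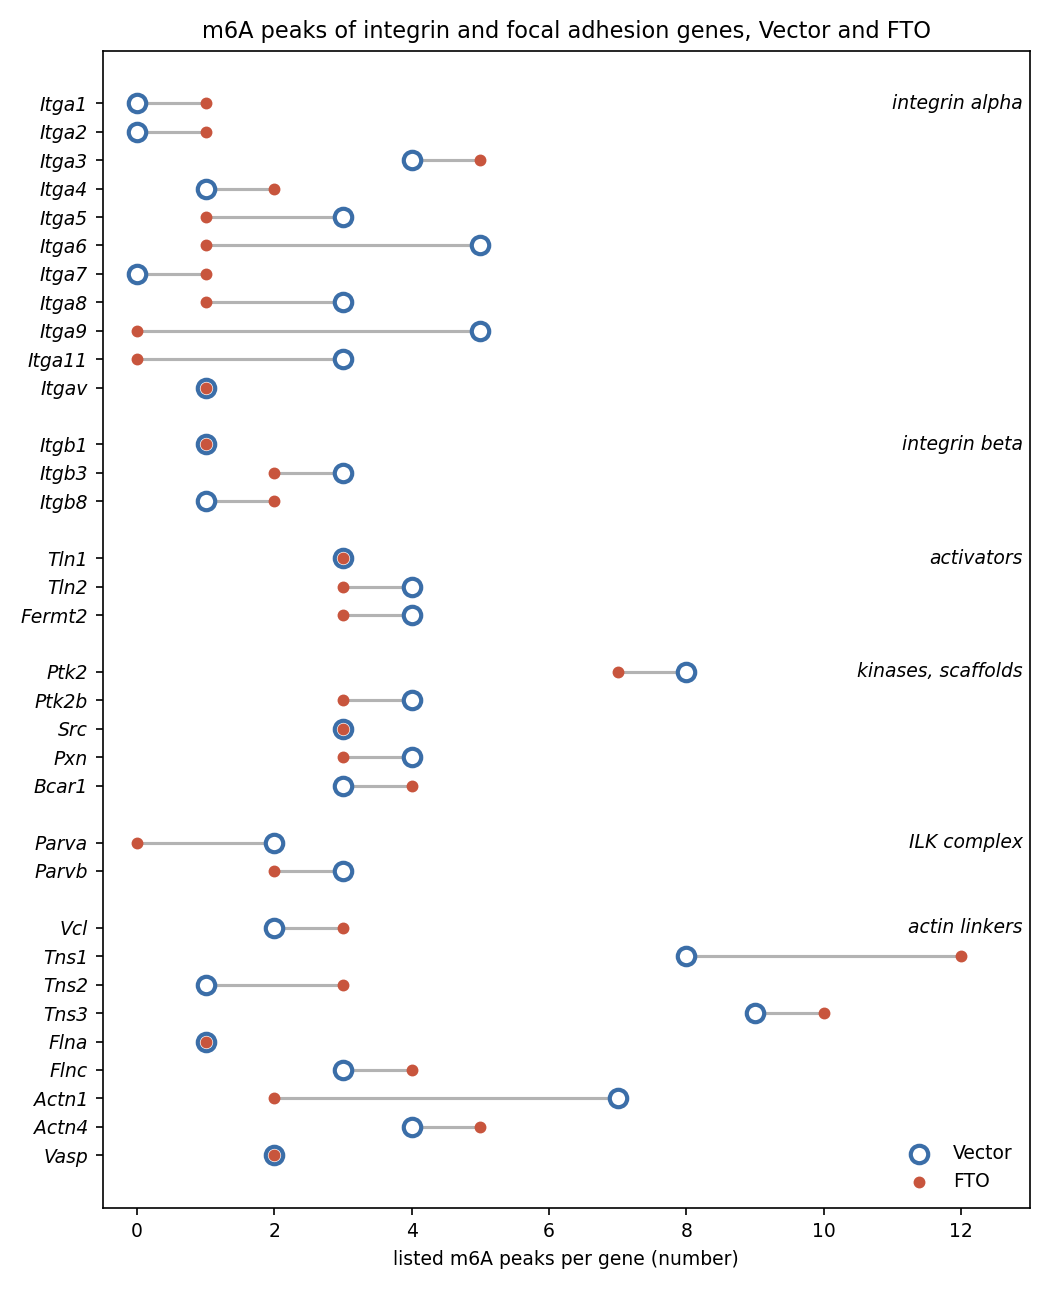
Number of listed m6A peaks (horizontal axis) for each of the 33 genes with a peak, grouped by role, with open circles for Vector and filled points for FTO, 1 list per group and no error. Vector lies to the right of FTO for Itga6 (5 against 1), Itga9 (5 against 0) and Actn1 (7 against 2), and FTO lies to the right for Tns1 (8 against 12).

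Among the collagen-binding alpha subunits, Itga11, the partner of beta1 on fibroblasts that binds fibrillar collagen, had 3 Vector peaks of 20, 208 and 1423 bp and no FTO peak. Itga1 and Itga2, the alpha subunits of the other widely expressed collagen receptors, went the other way. Itga1 had no Vector peak and 1 FTO peak of 490 bp. Itga2 had no Vector peak and 1 FTO peak of 137 bp. Itga10 had no listed peak in either group. The collagen receptors thus did not share a direction.

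Among the laminin-binding subunits, Itga6 had 5 Vector peaks of 375, 80, 256, 190 and 2399 bp, given in the order of their peak numbers, and 1 FTO peak of 1923 bp. No length of Itga6 occurred in both lists, and the summed length was 3300 bp with Vector and 1923 bp with FTO. Itga3 had 4 Vector peaks of 128 to 1338 bp and 5 FTO peaks of 128 to 1383 bp. The Itga3 peaks of 141, 128 and 402 bp were listed in both groups, an FTO peak of 183 bp lay between those of 141 and 128 bp, and the longest peak was 45 bp longer in the FTO group. Itga7, a subunit best known from muscle, had no Vector peak and 1 FTO peak of 128 bp.

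Itga5, Itga8 and Itgav form receptors for fibronectin and other proteins with an RGD site. Itga5, the alpha subunit of the main fibronectin receptor, had 3 Vector peaks of 1056, 131 and 497 bp and 1 FTO peak of 497 bp. Only the peak of 497 bp was thus in both lists for Itga5. Itga8 had 3 Vector peaks of 2607, 101 and 354 bp and 1 FTO peak of 748 bp, so none of its lengths was shared. Itgav, which pairs with several beta subunits, had 1 peak of 185 bp in each group.

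Itga4 and Itga9 are related subunits that bind VCAM-1 and, in the case of Itga9, tenascin-C. Itga9 had 5 Vector peaks of 188, 128, 68, 102 and 99 bp and no FTO peak. Every Itga9 peak was shorter than 200 bp, so the gene had no peak in either group when shorter peaks were left out. Itga4 had 1 Vector peak of 362 bp and 2 FTO peaks of 362 and 120 bp. Of the 18 integrin members, Itga9 and Itga11 were listed in the Vector group alone, and Itga1, Itga2 and Itga7 in the FTO group alone. With Parva, described below, 3 members were listed with Vector alone and 3 with FTO alone, each 9.09% of the 33 with a peak, where 16.4% of all listed genes were in the Vector list alone and 9.57% in the FTO list alone.

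Of the beta subunits, Itgb1, the common partner of most alpha subunits of fibroblasts, had 1 peak of 239 bp in each group. Itgb3, the partner of alphav in the vitronectin receptor, had 3 Vector peaks of 89, 444 and 167 bp and 2 FTO peaks of 444 and 45 bp. The Itgb3 peak of 444 bp was on another Ensembl transcript than the others. Itgb8, whose receptor with alphav activates latent TGF-β, had 1 Vector peak of 321 bp and 2 FTO peaks of 321 and 916 bp, the peak of 916 bp being on a transcript that had no Vector peak. Itgb4, Itgb5 and Itgb7 had no listed peak. A gene without a listed peak may have lacked m6A, transcript or reads, or its peaks may be among the numbers not listed. These cannot be told apart here.

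**Figure D2:**
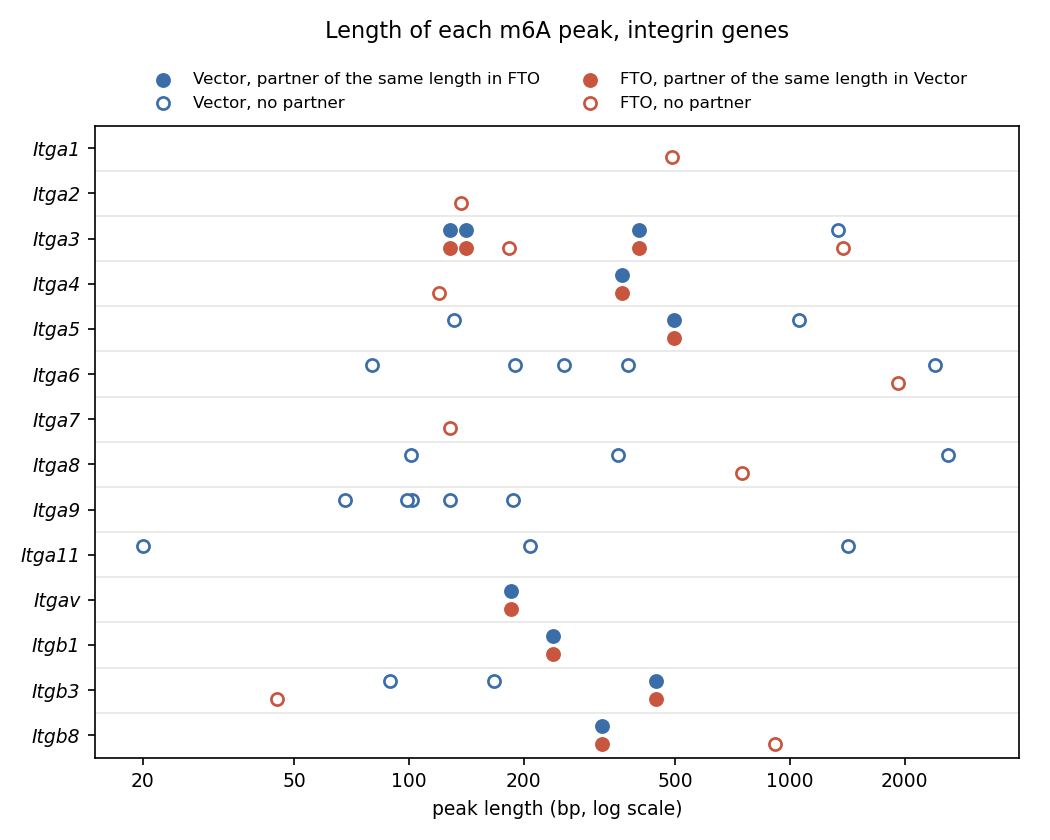
Length in bp (log scale) of every listed m6A peak of the 14 integrin genes with a peak, Vector above FTO for each gene, with filled points for peaks whose length recurs for that gene in the other list and open circles for the rest. Itga6, Itga8, Itga9 and Itga11 hold open circles only, while Itgav and Itgb1 hold 1 filled point per group.

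Among the activators, Tln1, the main talin of fibroblasts, had Vector peaks of 566, 186 and 209 bp and FTO peaks of 566, 182 and 209 bp. The middle Tln1 peak therefore differed by 4 bp and the other 2 were equal. Tln2 had 4 Vector peaks of 126, 153, 130 and 98 bp and 3 FTO peaks of 126, 153 and 130 bp. Fermt2, the kindlin of fibroblasts, had 4 Vector peaks of 142, 135, 234 and 166 bp and 3 FTO peaks of 135, 234 and 166 bp. In Tln2 and Fermt2 each FTO peak matched a Vector peak in length, and 1 Vector peak, the last of Tln2 and the first of Fermt2, was not listed with FTO. Fermt1, a kindlin of epithelia, had no listed peak.

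The kinases were near equal in number. Ptk2, which encodes focal adhesion kinase, had 8 Vector peaks of 53 to 156 bp and 7 FTO peaks of 81 to 156 bp. Of these, 4 were shared, and FTO peaks of 132 and 138 bp were numbered in a row between the shared peaks of 156 and 87 bp. Ptk2b, which encodes the related kinase Pyk2, had 4 Vector peaks of 815, 147, 141 and 241 bp and 3 FTO peaks of 951, 241 and 46 bp. Src, the kinase that acts with focal adhesion kinase, had peaks of 258, 100 and 104 bp in both groups.

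Of the scaffolds, Pxn, which encodes paxillin, had 4 Vector peaks of 2075, 136, 426 and 159 bp and 3 FTO peaks of 136, 426 and 159 bp. The longest Pxn peak was thus listed with Vector alone, and the summed length was 2796 bp with Vector and 721 bp with FTO. Bcar1, which encodes p130Cas, had Vector peaks of 905, 1098 and 635 bp. All of these were listed for Bcar1 with FTO as well, beside a further peak of 162 bp.

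In the complex of ILK, PINCH and parvin, Parva, the parvin found in most cells, had 2 Vector peaks of 212 and 73 bp and no FTO peak. Parvb had 3 Vector peaks of 144, 71 and 103 bp and 2 FTO peaks of 144 and 90 bp. Ilk itself and Lims1, which encodes PINCH1, had no listed peak. With 5 Vector peaks and 2 FTO peaks, the complex had the lowest FTO share among the adaptor roles, 28.6%, with an interval of 8.22% to 64.1%.

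The 3 tensins among the members, which bind beta tails and actin, each had more FTO peaks. Tns1 had 8 Vector peaks of 528, 169, 132, 1070, 1581, 66, 38 and 115 bp. With FTO it had 12 peaks, of 528, 169, 78, 132, 1070, 199, 93, 76, 197, 1581, 62 and 115 bp. The Tns1 peaks that occurred in the FTO list alone were 62 to 199 bp long, 4 of them between the shared peaks of 1070 and 1581 bp. Tns2 had 1 Vector peak of 1212 bp and 3 FTO peaks of 109, 172 and 1212 bp. Tns3 had 9 Vector peaks of 51 to 2864 bp and 10 FTO peaks over the same range, of which 7 were shared. Together the tensins had 18 Vector and 25 FTO peaks, and the other adaptors had 57 and 48. The tensins were set apart after their counts were seen, so the split is a description. When peaks shorter than 200 bp were left out, the tensins had 6 Vector and 7 FTO peaks and Tns1 had 3 in each group.

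The actinins crosslink actin filaments and differed from each other. Actn1 had 7 Vector peaks of 183, 141, 151, 231, 93, 120 and 358 bp and 2 FTO peaks of 141 and 358 bp. Both FTO peaks of Actn1 were thus among the Vector peaks, and none of the 4 Vector peaks numbered between them was listed with FTO. The 2 FTO peaks had the numbers 41638 and 41644, which are not consecutive. What the numbers between them stood for is unknown, so the 4 peaks cannot be said to have been absent. Actn4 had 4 Vector peaks of 93 to 1185 bp, all listed with FTO as well, and a further FTO peak of 82 bp. Of the filamins, which crosslink actin and bind beta tails, Flna had 1 peak of 542 bp in each group. Flnc, the filamin of muscle, had Vector peaks of 581, 249 and 270 bp and FTO peaks of 581, 598, 270 and 879 bp.

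Vcl, which encodes vinculin, had Vector peaks of 125 and 148 bp, and with FTO these and a peak of 71 bp. Vasp, which promotes actin filament growth at the adhesion, had peaks of 177 and 183 bp in both groups, on separate transcripts. Zyx, the gene of zyxin, had no listed peak. Itgav, Itgb1, Src, Flna and Vasp were the 5 members whose peaks were equal in number and length in both lists, 15.2% of the 33 with a peak, against 21.0% of all genes.

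**Figure D3:**
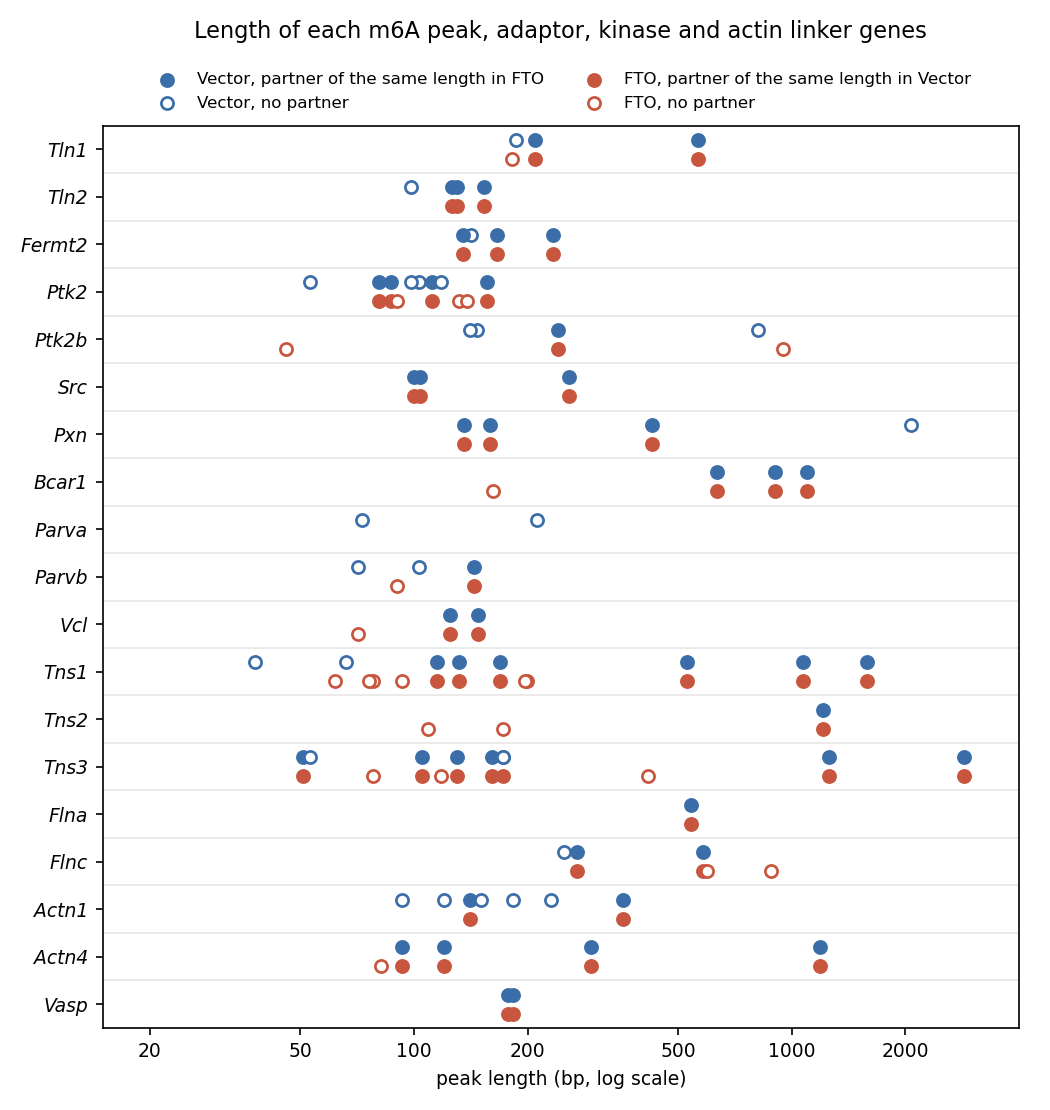
Length in bp (log scale) of every listed m6A peak of the 19 adaptor genes with a peak, Vector above FTO for each gene, with filled points for peaks whose length recurs for that gene in the other list. Most points are filled, open FTO circles of Tns1 lie between 62 and 199 bp, and the peak of Pxn at 2075 bp is open in Vector.

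Peaks were then paired 1 to 1 between the lists when gene and length were equal. The lists hold no positions, so that a peak whose length changed stays without a partner. Equal lengths did follow the same order in both lists: of 2644 genes with at least 2 lengths found once in each list, 2638 had them in the same order of peak number. Of all Vector peaks, 57.3% had an FTO partner, and of all FTO peaks, 68.4% had a Vector partner. Of the 30 integrin Vector peaks, 9 had a partner, which is 30.0% (95% Wilson interval 16.7% to 47.9%). Of the 75 adaptor Vector peaks, 50 had one, 66.7% (55.4% to 76.3%). The integrin interval lay below the share of all peaks and below the adaptor interval, but peaks of 1 gene are not independent and the classes were not tested against each other. With peaks of at least 200 bp this separation was lost, since the integrin interval, 19.8% to 64.3% around 40.0%, then held the 59.7% of all genes and overlapped that of the adaptors, 62.1% to 91.5% around 80.8%.

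Leaving out each of the 11 integrins with Vector peaks in turn gave 23.1% (without Itga3) to 36.0% (without Itga6, and likewise without Itga9). No intervals were computed for these shares. Whether the integrin interval stayed apart from that of the adaptors without each gene was therefore not tested. For the adaptors the same procedure gave 64.8% to 70.6%. The unpaired integrin peaks were unevenly spread over genes. Itga6, Itga8, Itga9 and Itga11 had 5, 3, 5 and 3 Vector peaks and no partner, so all 9 partners belonged to the other integrins. By role, 6 of 25 Vector peaks of alpha subunits had a partner (24.0%) and 3 of 5 of beta subunits. The share was 73.0% for the 37 peaks of actin linkers, 72.7% for the 11 of activators and 63.6% for the 22 of kinases and scaffolds, and 1 of the 5 peaks of the ILK complex had a partner. On the FTO side, 47.4% of the 19 integrin peaks and 68.5% of the 73 adaptor peaks had a Vector partner, with intervals of 27.3% to 68.3% and 57.1% to 78.0%. The integrin interval ended just below the 68.4% of all FTO peaks, and the adaptor interval held it.

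**Figure D4:**
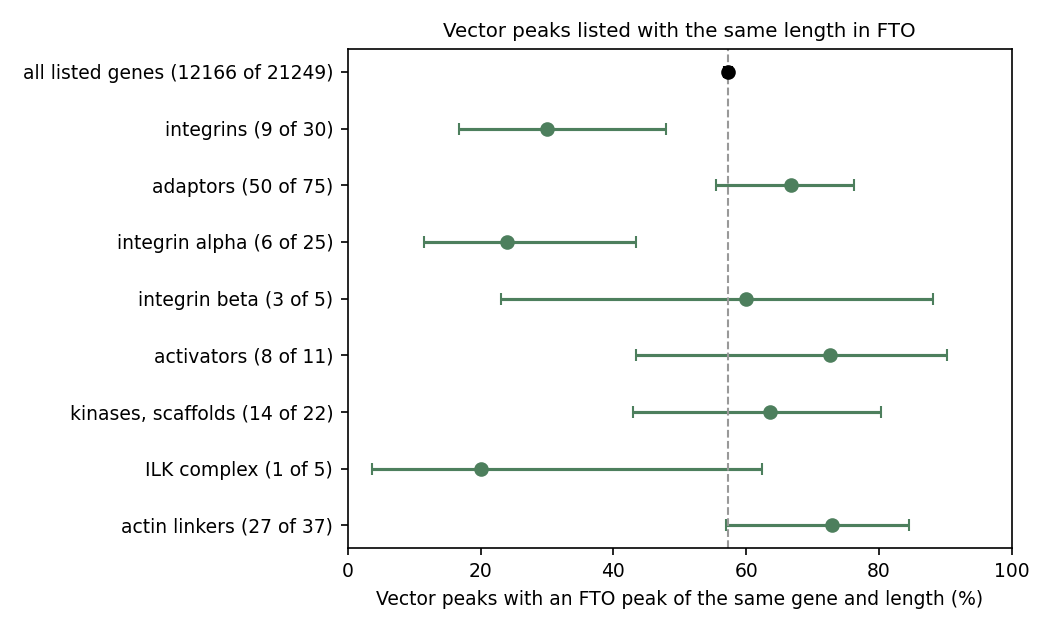
Percentage of Vector peaks with an equally long FTO peak of their gene (points) with 95% Wilson intervals (bars, counting error only), for all listed genes, both classes and the 6 roles, with counts beside each name and a dashed line at 57.3%, the share of all Vector peaks. The integrins stand at 30.0% and the adaptors at 66.7%.

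Peak lengths of the members ran from 20 to 2864 bp with Vector and from 45 to 2864 bp with FTO. The median integrin peak was 199 bp with Vector and 321 bp with FTO, and the intervals of these medians, 131 to 362 bp and 137 to 497 bp, overlapped. The means were 470 and 463 bp, so the direction depended on the measure. The median adaptor peak was 153 bp with Vector and 159 bp with FTO. Over all genes the medians were 203 and 228 bp. Peaks shorter than 100 bp numbered 5 with Vector and 1 with FTO among the integrins, and 13 and 14 among the adaptors. Peaks of at least 1000 bp numbered 5 and 2 among the integrins, with Itga3, Itga5, Itga6, Itga8 and Itga11 in the Vector group and Itga3 and Itga6 in the FTO group. The adaptors had 8 and 7 such peaks, and over all genes 14.2% of Vector and 16.7% of FTO peaks were as long.

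Other genes of the same pathway, written down as lists beside the members, were counted in the same way. Of 9 further integrin genes, mostly of leukocytes, 4 had a peak, with 9 Vector peaks and 2 FTO peaks. Itgal, the alpha subunit of LFA-1, had 4 Vector peaks and no FTO peak, and none of the 9 Vector peaks had a partner. Of 37 further adhesion adaptors, 27 had a peak, with 91 Vector and 83 FTO peaks. They were fewer with FTO for 14 of these genes (51.9%) and more for 7 (25.9%), against 41.4% and 21.2% of all genes. Arhgef6, an exchange factor for Rac and Cdc42, was the only one of these with a difference of 3 or more, at 2 Vector and 6 FTO peaks. Upward differences of this size concerned 3.7% of the 27 genes, against 1.39% of all genes, and downward ones 0.0% against 5.97%.

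Of 32 adhesion signalling genes, 27 had a peak, with 117 Vector and 90 FTO peaks. They were fewer with FTO for 17 of these genes (63.0%) and more for 8, against the 41.4% and 21.2% of all genes given above. Differences of 3 or more were all downward and concerned 7 genes (25.9%), against 5.97% of all genes downward and 1.39% upward. Of these 7 genes, 6 are described here. Rock1 and Rock2, the kinases that drive contraction below RhoA, had 16 and 13 peaks and 12 and 6 peaks with Vector and FTO. Pak2, a kinase below Rac and Cdc42, had 4 and 0. Sos1, an exchange factor for Ras, had 8 and 4. Yes1, a relative of Src, and Elmo1, which activates Rac with Dock1, each had 3 and 0.

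**Figure D5:**
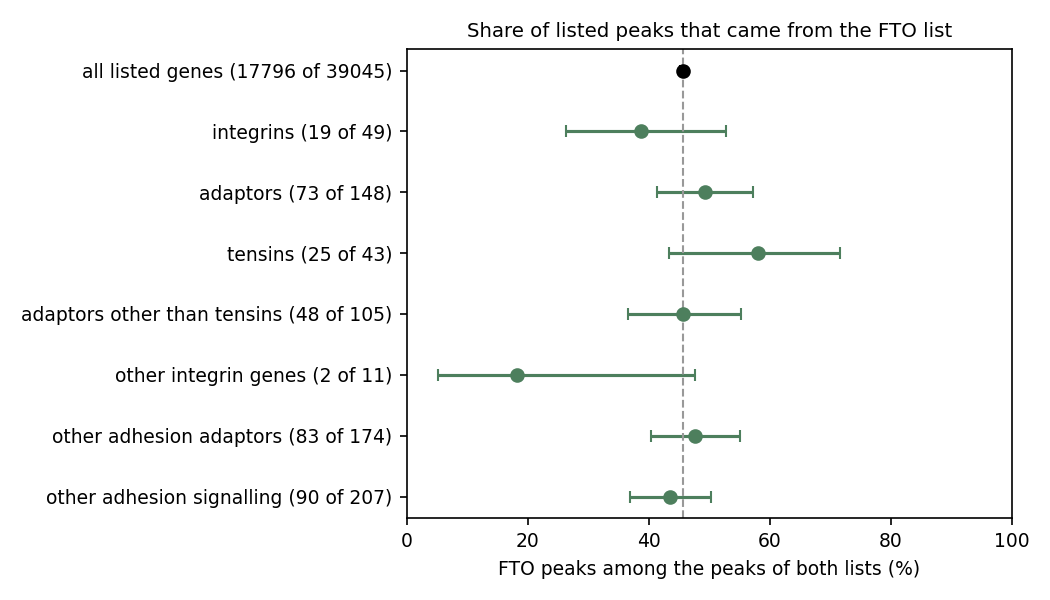
FTO peaks as a percentage of the Vector and FTO peaks together (points) with 95% Wilson intervals (bars, counting error only), for all listed genes, the member classes and the lists of other adhesion genes, with counts beside each name and a dashed line at the 45.6% of all genes. The interval of each list holds that line.

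The study's methods name a step of differential adhesion, by which fibroblasts are parted from cardiomyocytes. The labelled cell type was checked by which markers had listed peaks, which shows that a transcript was present but not its level. Of 11 fibroblast markers, 7 had a peak, with 15 Vector and 11 FTO peaks, among them Pdgfra with 7 and 6, Fn1 with 3 and 1 and Tcf21 with 1 in each group. Col1a1, Col1a2, Vim and Dcn, which fibroblasts express strongly, had no listed peak. Of 8 cardiomyocyte markers, 6 had a peak, with 23 and 25 peaks, among them Myh6 with 7 in each group, Tnnt2 with 4 and 7, Ryr2 with 2 and 5, Myh7 with 8 and 5 and Myl2 with 1 and 0, while Actc1 and Nppa had none. Of 5 leukocyte markers, 4 had a peak, with 13 and 10 peaks, mostly of Ptprc, which had 10 and 7. Of 6 mural cell markers, 2 had a peak, with 20 and 21 peaks, of which Myh11, the smooth muscle myosin gene, had 17 and 15 and Cspg4 had 3 and 6. Of 6 endothelial markers, only Tek had a peak, with 0 and 2, and Pecam1 and Cdh5 had none. Peaks were thus listed for transcripts known from muscle cells and leukocytes. The part of such cells in the peaks of Itga7, Flnc and the other members, and in those of Itgal, was not tested.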

How the data were processed

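The authors sequenced m6A-IP and input libraries of CFs and deposited 1 list of called peaks per group, each from 1 IP and 1 input library. The submitters' processing notes name cutadapt 1.9.3, HISAT2 2.0.4 and the rn6 build. The peak names start with MACS. The version and threshold of the caller, and why some peak numbers are not listed, are not given in the sources used here. The deposited measurement is the peak length in bp, not normalized. The libraries' depth is unknown.

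The members and gene lists were chosen with earlier results of these data known. Symbols were matched to gene IDs through the RefSeq table of GRCr8, for 41 of 41 members and 114 of 114 other list entries. Peaks without a gene ID, 248 with Vector and 213 with FTO, were counted by transcript in the totals. Peaks were counted per gene and paired 1 to 1 by gene and length, closest lengths first. Pairing was checked on simulated lists. Shares have 95% Wilson intervals and medians have binomial intervals. No test was run, since each group had 1 list. All members with a peak are named, with lengths in full for at most 4 peaks per list or a difference of at least 3. Other list genes are named at a difference of at least 3, except 1 that is not reported here. Marker genes are examples. Alternatives were minimum lengths of 100 and 200 bp, scaling to list size, other pairing rules and leaving out genes. Python 3.11.15, numpy 2.4.6, pandas 2.3.3, scipy 1.17.1 and matplotlib 3.10.9 were used.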

Additional observations from a re-analysis of the deposited data

How the results depend on the processing

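For the comparisons, 53 values were recomputed under settings other than leaving out each gene in turn. Of these, 28 did not turn direction and stayed within their interval or within 1.5 times the count. Among these 28, the share of all members came to equal numbers, 37 Vector and 37 FTO transcripts. A further 15 values moved beyond these limits, 8 changed direction and 2 passed equal numbers through scaling to list size. For Itga6, Itga9, Itga11, Tns1 and Actn1, 12 of 20 recomputed differences in peak number moved by over 1.5 times or to 0. The 30 values without 1 gene each, an alternative chosen after the data were seen, all stayed within the interval of the paired share. For the integrins that interval was wide, 16.7% to 47.9%, so leaving out 1 gene could hardly pass it. Multiplying FTO peak numbers by 1.19, the ratio of the list sizes, makes both lists equal over all genes by construction. It gave FTO shares of 51.1% for all members, 53.8% for the adaptors and 43.1% for the integrins. Since 1 factor is applied to every group, it cannot change on which side of the share of all genes a group lies. Counting transcripts with a peak in place of peaks turned the integrin share to 53.8% (12 with Vector, 14 with FTO). With peaks of at least 100 bp, the adaptors with as many peaks were 8. With peaks of at least 200 bp, the integrins with more FTO peaks were 2 and those with as many 4, and among the adaptors 3 had fewer, 2 more and 9 as many. With a difference of at least 2 peaks required, no integrin (0) had more and 9 were within the limit, and 2 adaptors had fewer, 2 more and 15 were within it. The share of Vector peaks with a partner was 71.4% for all members and 82.7% for the adaptors when a partner could have any length, and 65.9% and 80.8% with peaks of at least 200 bp. Under these rules the integrins had 43.3% and 40.0%, and all genes 72.2% and 59.7%. By medians, the FTO minus Vector difference in length was 1.5, 122 and 6 bp for all members, integrins and adaptors. By means it turned to -12, -7 and -2 bp, and with peaks of at least 100 bp to -1 bp for all members. In summed length it was -6077, -5306 and -771 bp. Summed length also depends on the number of peaks, which was lower with FTO in each class. The 8 changes of direction include the summed lengths. The cause of the differences in length was not tested. No paired analysis was possible because there was only 1 list, from 1 IP and 1 input library, for either plasmid, and for this reason no replicate could be left out. Library depth, which is unknown, limits what the peak numbers can show.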

Other observations

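The related genes Actn1 and Actn4 shared peak lengths. In the Vector list both had a peak of 93 bp next to a peak of 120 bp, and in the FTO list Actn4 kept both, with the peak of 82 bp between them, while Actn1 had neither. Over the whole Vector list 4 genes had peaks of 93 and 120 bp, and in 3 of these the peaks were neighbours. Itga3, Itga7 and Itga9 likewise each had a peak of 128 bp, a length listed 81 times with Vector and 57 times with FTO over all genes, so that a shared length by itself is common. These lengths were noticed after the data were seen.

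Among members with peaks on more than 1 Ensembl transcript, Src, Vasp, Tln2, Pxn, Itgb3 and Actn4 used the same 2 transcripts in both groups. Ptk2 had a peak of 103 bp on a second transcript with Vector alone, and Itgb8 had its peak of 916 bp on a second transcript with FTO alone.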
